A study of Mus musculus with 8 samples.

Results

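The regions described here were cassette exons of at most 60 bases in mouse intestinal organoids, meaning internal exons that some transcripts of a gene carry and others skip. An exon entered when the tables listed, in all 8 samples, a row for transcripts with the exon and a row for transcripts joining the same outer splice sites without it, and when the FPKM values of these rows (a transcript level scaled for transcript length and sequencing depth) summed to at least 2 in every sample. These measured values chose the members, and 403 of 2197 pairs of any length met the rule. The 403 pairs held 397 distinct exons in 366 genes, and 58 of the exons were microexons of at most 27 bases. Inclusion was the FPKM with the exon as a percentage of the summed FPKM of both rows.

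Organoids were grown in Matrigel from small intestinal crypts of MG53-TG mice, which overexpress MG53 in the whole body, and of their wild type littermates (WT). There were 4 samples of each genotype and no other treatment was named for them. The labels gave no age or sex for the animals, and nothing said whether samples of a genotype came from separate animals or cultures, so the p-values measure only the spread between these samples. Trim72, the gene of MG53, was listed at 0 in all WT samples and at 16.4, 27.4, 31.9 and 36.5 FPKM in the MG53-TG samples, taking the highest of its start, end and single event values. By the start sum alone MG53-TG replicate 2 was listed at 0.

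A cassette exon is defined by its flanking splice sites, and regulatory proteins bound to the exon or the neighbouring introns set how often it is used. Very short exons leave little room for such proteins, and families such as Rbfox, Ptbp, Srrm, Mbnl and Esrp are known to control many of them. Exons whose length is a multiple of 3 keep the reading frame whether they are included or skipped, so their inclusion adds or removes a few amino acids. Microexons are best known from neurons, and epithelial cells have their own splicing programme under Esrp1 and Esrp2.

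The sequences of selected exons of the comparison are shown with the exon in capitals and 20 bases of each neighbouring exon in lower case, 5′ to 3′ on the coding strand. Some exons with larger differences are not shown. They were read from GENCODE M21 transcripts of GRCm38, the build the submitters called mm10. The Sec31a exon (39 bases, chr5:100389068-100389106, minus strand) and the Trappc9 microexon (27 bases, chr15:73042177-73042203, minus strand) passed the test across all pairs, and both were coding.
Sec31a: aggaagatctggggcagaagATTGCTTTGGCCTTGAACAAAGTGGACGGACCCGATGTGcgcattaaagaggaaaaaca
Trappc9: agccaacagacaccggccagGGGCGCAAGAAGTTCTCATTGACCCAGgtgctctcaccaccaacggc

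A further 5 microexons are shown because their WT and MG53-TG samples did not overlap and the exons were neither near 0% nor near 100% in both groups. These were the exons of Picalm (24 bases, chr7:90194273-90194296, plus strand), Arntl (21 bases, chr7:113281402-113281422, plus strand), Senp6 (21 bases, chr9:80098886-80098906, plus strand), Cd302 (27 bases, chr2:60255071-60255097, minus strand) and Mtch2 (27 bases, chr2:90852840-90852866, plus strand). All lay in coding sequence, and all 5 lengths were multiples of 3.
Picalm: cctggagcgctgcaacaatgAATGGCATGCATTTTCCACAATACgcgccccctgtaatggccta
Arntl: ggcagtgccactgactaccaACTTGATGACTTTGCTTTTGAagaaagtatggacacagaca
Senp6: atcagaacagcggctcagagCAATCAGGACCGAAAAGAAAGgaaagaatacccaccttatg
Cd302: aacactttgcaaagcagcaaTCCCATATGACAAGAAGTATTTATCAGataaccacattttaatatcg
Mtch2: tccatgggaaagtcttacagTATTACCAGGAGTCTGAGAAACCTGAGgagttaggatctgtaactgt

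A further 3 coding exons are shown because the isoforms of their genes are well studied and their differences were among the largest in either direction. These were the exons of Insr (36 bases, chr8:3181702-3181737, minus strand), Mbnl1 (54 bases, chr3:60614683-60614736, plus strand) and App (54 bases, chr16:84971408-84971461, minus strand).
Insr: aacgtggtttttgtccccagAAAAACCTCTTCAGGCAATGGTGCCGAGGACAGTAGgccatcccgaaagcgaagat
Mbnl1: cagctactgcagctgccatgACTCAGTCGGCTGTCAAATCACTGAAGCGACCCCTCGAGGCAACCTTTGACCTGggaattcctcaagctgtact
App: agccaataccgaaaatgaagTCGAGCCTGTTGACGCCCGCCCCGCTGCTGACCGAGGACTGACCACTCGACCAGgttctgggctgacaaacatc

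Short cassette exons kept the reading frame more often than the longer ones. Of the 397 distinct exons 250 (63.0%) had a length that was a multiple of 3, against 869 of 1786 longer cassette exons (48.7%). Among the microexons the count was 47 of 58 (81.0%). Within coding sequence alone it was 212 of 293 short exons (72.4%) and 667 of 1177 longer ones (56.7%). In the distribution of lengths the commonest value was 60 bases with 32 exons, followed by 45 bases with 26 and 36 bases with 23. The shortest exon was the 3-base exon of Cyth2, which encodes an Arf exchange factor, and the 6-base exons lay in Ap2m1, Nsfl1c and Phb2.

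**Figure D1:**
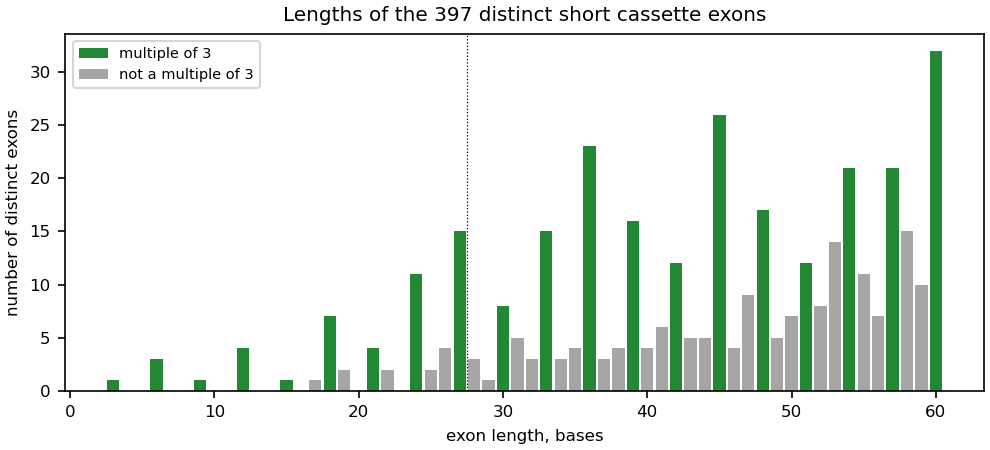
Number of distinct short cassette exons (vertical axis) at each exon length in bases (horizontal axis), with lengths that are a multiple of 3 in green and the others in grey. The dotted line marks the microexon limit of 27 bases. The tallest bars, at 36, 45, 54, 57 and 60 bases, are all multiples of 3.

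The annotation placed 293 of the 397 exons (73.8%) within coding sequence, against 65.9% of the longer ones. A further 40 were partly coding, 40 lay in a 5′ UTR, 3 in a 3′ UTR and 15 in transcripts without a coding sequence, and 6 had no exon with the same ends in the annotation. The introns upstream of the short exons had a median of 1298 bases (1823 bases for longer exons), and those downstream 1744 bases (1580 bases). GC content was close to that of longer exons, with medians of 48.0% and 49.6%.

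Within their pairs, short exons were included less than longer ones in these organoids. Counting all listed neighbours of an exon gave another value by more than 10 points in some sample for 56 short pairs. The median of the mean inclusion over the 8 samples was 45.5% for short exons, 29.1% for microexons and 80.0% for longer exons. Mean inclusion was under 5% in 64 short pairs, between 5% and 95% in 246 and above 95% in 93. The rows were taken to give the FPKM of the transcripts carrying each event, a reading inferred from the values, and pairs of one gene would then share transcripts and not be independent. In 32 genes more than 1 pair met the rule, 30 pairs shared their skipping row with another exon, and in 171 pairs just 1 annotated transcript joined the exon to both neighbours.

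At the limits of the rule, the 60-base exons of Mff had mean inclusions of 30.7% in WT and 45.7% in MG53-TG for one pair of neighbours and 12.6% and 3.68% for the other. Just past the limit, the 61-base exons of Ndufa12 and Tmem161b were at 0.259% and 0.386% and at 100% in both groups. By summed FPKM, the lowest samples of Enox2 (2.004 FPKM) and Taz (2.015 FPKM) lay just inside and those of Slmap (1.942 FPKM) and Baz2b (1.902 FPKM) just outside.

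The comparison asked which of these exons were used differently in organoids overexpressing MG53. The exons of Sec31a and Trappc9 rose in MG53-TG, so that 2 of 403 short pairs passed the limma test at an adjusted p of 0.05 over all 2197 pairs, beside 9 pairs of any length (0.410%). When all listed neighbours of the Sec31a exon were counted, its difference was 19.0 points and did not pass (limma adjusted p = 0.264). At an unadjusted p under 0.05 there were 58 short pairs, 38 of them higher and 20 lower in MG53-TG, which is 14.4% beside 10.7% of pairs of any length (4.92% higher and 5.74% lower). Among the longer pairs 70 were higher and 106 lower at that level.

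In 51 short pairs (12.7%) the 4 WT and the 4 MG53-TG values did not overlap, beside 9.83% of pairs of any length. The MG53-TG samples were higher in 33 of them and lower in 18, while over pairs of any length 4.73% were higher and 5.10% lower. In the longer pairs the counts were 71 higher and 94 lower. Of the 25 short pairs that did not overlap and differed by at least 10 percentage points, 20 were higher in MG53-TG and 5 lower, beside 2.05% higher and 1.73% lower over pairs of any length. In length, 16 of the 20 and 4 of the 5 were multiples of 3. All 25 had a mean inclusion between 5% and 95%, and 172 of all 246 short pairs in that range were multiples of 3. The difference in direction between short and longer exons was described by these counts and was not tested.

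The same leaning was seen in the level of single samples. Over the 246 short pairs with a mean inclusion between 5% and 95%, the median inclusion was 30.7%, 34.0%, 41.5% and 30.9% in WT replicates 1 to 4. It was 44.3%, 38.4%, 44.6% and 46.5% in MG53-TG replicates 1 to 4. The groups overlapped, since WT replicate 3 lay above MG53-TG replicate 2. Over the longer pairs of the same range the medians lay between 58.8% and 61.8% in WT and between 57.6% and 62.1% in MG53-TG. The median of the differences was 3.33 points for these short pairs and 0.24 points for the longer ones, and over all 403 short pairs it was 0.51 points.

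**Figure D2:**
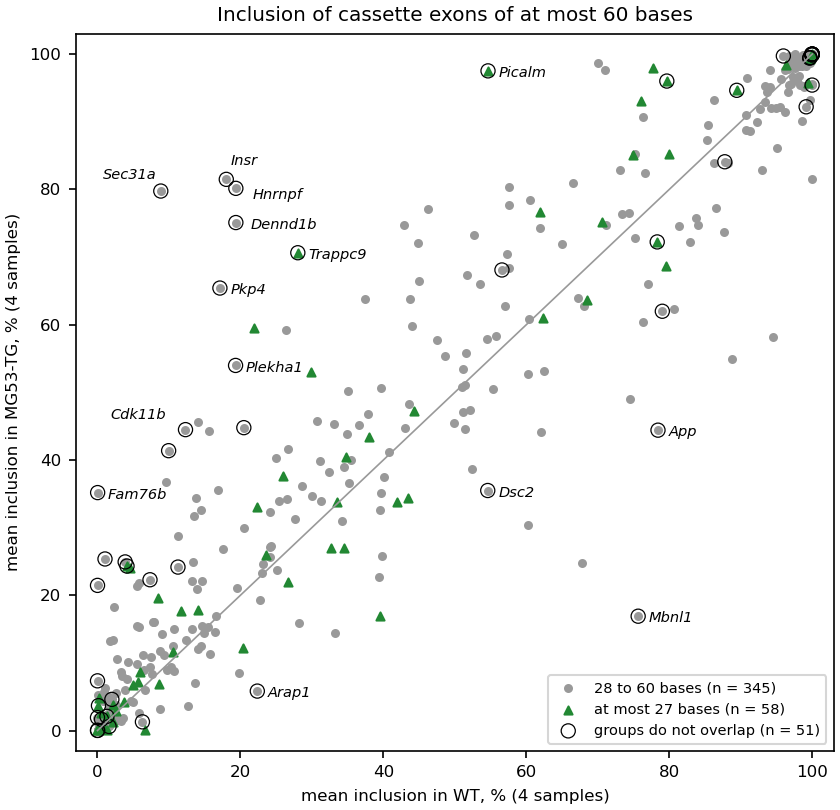
Mean inclusion in percent over 4 MG53-TG samples (vertical axis) against that over 4 WT samples (horizontal axis) for the 403 short pairs, with microexons as green triangles and the 51 pairs whose groups did not overlap circled. The grey line marks equal inclusion. Named pairs differed by at least 15 points, and more of them lie above the line, with Sec31a at 8.86% and 79.7%, than below it, with Mbnl1 at 75.6% and 16.9%.

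Sec31a encodes the outer coat subunit of COPII vesicles, which carry cargo from the endoplasmic reticulum to the Golgi. Inclusion of its exon within the pair was 25.4%, 1.70%, 5.67% and 2.70% in WT replicates 1 to 4 and 88.4%, 80.4%, 65.4% and 84.8% in MG53-TG. The groups did not overlap, and WT replicate 1 was the highest of its group. The mean rose from 8.86% ± 11.1 (SD, n = 4) to 79.7% ± 10.1 (SD, n = 4), with a limma adjusted p of 0.0217. Transcripts with the exon were at 5.28, 0.151, 0.142 and 0.132 FPKM in WT and at 7.06, 12.1, 5.88 and 16.7 FPKM in MG53-TG. Those skipping it were at 15.5, 8.71, 2.36 and 4.74 FPKM in WT and at 0.924, 2.94, 3.11 and 3.00 FPKM in MG53-TG.

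The pair leaves out Sec31a transcripts in which the exon stands beside another cassette exon rather than between the pair's outer splice sites. When all listed neighbours of the exon and all listed junctions skipping it were counted, inclusion was 57.7%, 74.6%, 87.9% and 83.5% in WT and 97.8%, 93.9%, 93.0% and 95.3% in MG53-TG. The groups still did not overlap, but the difference was 19.0 points and did not pass (limma adjusted p = 0.264). Sec31a held a second short cassette exon of the same length, chr5:100369596-100369634, at 42.8% in WT and 74.7% in MG53-TG, whose groups overlapped (adjusted p = 0.644).

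Trappc9 encodes a subunit of the TRAPP complex, which tethers vesicles at the Golgi. Its microexon was included at 24.0%, 33.9%, 34.7% and 19.4% in WT and at 65.3%, 68.5%, 77.1% and 71.6% in MG53-TG. Every MG53-TG sample lay far above every WT sample, and both groups were narrow. The mean rose from 28% ± 7.52 (SD, n = 4) to 70.6% ± 5.00 (SD, n = 4), with a limma adjusted p of 0.0386. Transcripts with the exon were at 1.77, 2.44, 2.93 and 1.27 FPKM in WT and 4.25, 4.56, 4.53 and 4.64 FPKM in MG53-TG. Those skipping it were at 5.6, 4.75, 5.51 and 5.24 FPKM in WT and 2.25, 2.10, 1.35 and 1.84 FPKM in MG53-TG. Counting all listed neighbours gave the same inclusion (adjusted p = 0.0399). Leaving out any sample raised its adjusted p to between 0.0636 and 0.116, and it was 0.102 with absent rows as 0 and 0.0686 with no FPKM minimum. For Sec31a, leaving out 1 sample gave 0.0144 to 0.105, and of these settings it passed only without WT replicate 1 or MG53-TG replicate 3. With a replicate block neither passed, at a limma adjusted p of 0.296 for Trappc9 and 0.232 for Sec31a.

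**Figure D3:**
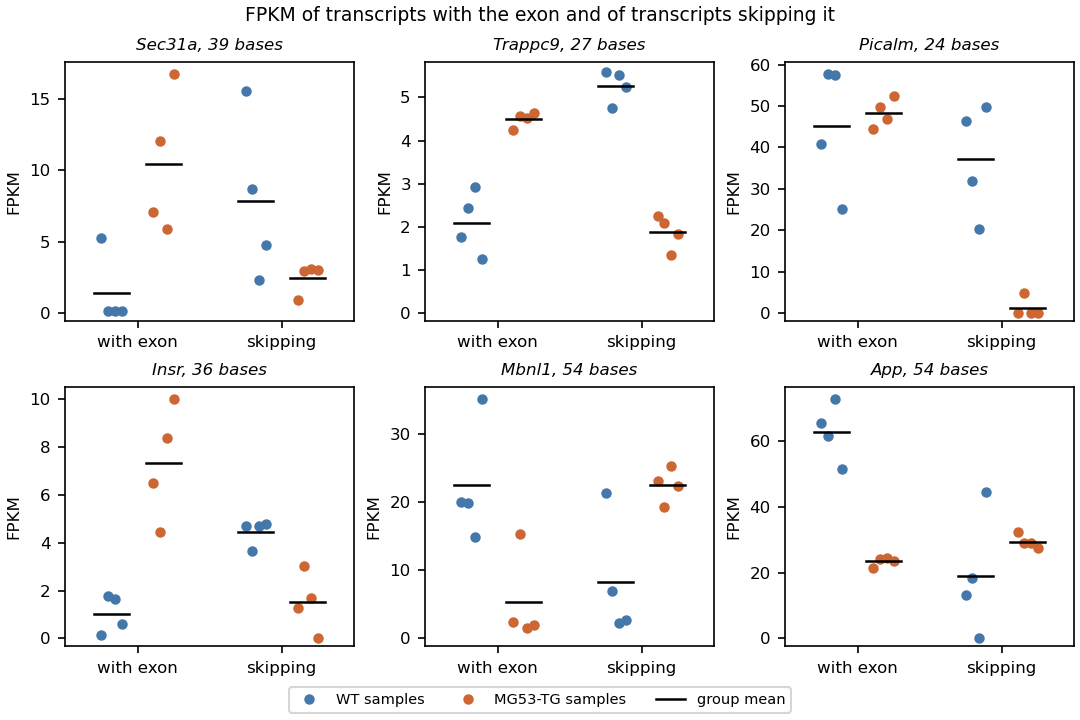
FPKM (vertical axis) of transcripts with the exon and of transcripts skipping it, for 6 short exons, with 1 point per sample, WT in blue, MG53-TG in orange and the group mean as a black bar. In Trappc9 the rows trade places between the groups, while in Picalm transcripts with the exon overlap between groups and those skipping it are near 0 in 3 MG53-TG samples.

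The other exons described in full were chosen by the size of their difference among the pairs whose groups did not overlap, 10 in each direction, with the pairs that passed the test counted among them. For such pairs the exact permutation test over 70 relabellings gives 0.0286, the smallest p it can give with 4 against 4 samples, whatever the size of the difference. None of the others passed the adjusted threshold, and their values are given as measured. On a logit scale with 0.5 added the exons of Picalm (limma adjusted p = 0.0209), Hnrnpf (0.0273), Ctsa (0.0117) and Insr (0.0457) passed. With 0.1 added Picalm, Hnrnpf and Ctsa passed, and within 5% to 95% mean inclusion Picalm and Hnrnpf.

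Insr encodes the insulin receptor, and its 36-base exon separates the A isoform, which lacks it, from the B isoform. Inclusion was 2.82%, 32.5%, 25.8% and 10.9% in WT and 83.5%, 59.4%, 83.1% and 99.9% in MG53-TG. The groups did not overlap, though both were wide. Means were 18% ± 13.6 and 81.5% ± 16.7 (SD, n = 4 each), with a limma adjusted p of 0.136. Transcripts with the exon were at 0.137 to 1.76 FPKM in WT and at 4.46 to 10 FPKM in MG53-TG, and those without it at 3.64 to 4.8 FPKM and 0.0113 to 3.05 FPKM.

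The 24-base exon of Picalm, a clathrin adaptor of endocytosis, was included at 46.9%, 64.3%, 73.8% and 33.5% in WT and at 99.7%, 90.9%, 99.8% and 99.7% in MG53-TG. Nearly all Picalm transcripts of the pair carried it in MG53-TG, whereas WT samples differed widely among themselves. Means were 54.6% ± 18 and 97.5% ± 4.42 (SD, n = 4 each; limma adjusted p = 0.0823). The skipping row was at 46.3, 32.0, 20.3 and 49.8 FPKM in WT and at 0.145, 5, 0.118 and 0.136 FPKM in MG53-TG. The row with the exon overlapped between groups, at 25.1 to 57.7 FPKM in WT and 44.6 to 52.3 FPKM in MG53-TG.

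Hnrnpf encodes an RNA-binding protein that itself takes part in splicing, and its 60-base exon (chr6:117907149-117907208, plus strand) lies in the 5′ UTR. Inclusion was 26.7%, 22.2%, 21.6% and 6.99% in WT and 91.8%, 88.6%, 84.8% and 55.4% in MG53-TG. MG53-TG replicate 4 lay closest to WT, and the adjusted p was 0.0668 with it and 0.0357 without it (limma). Leaving out any other sample of either group gave 0.117 to 0.204. Dennd1b, an exchange factor for the GTPase Rab35, had a 60-base exon at 2.32% to 26.1% in WT and 40.7% to 96.8% in MG53-TG (adjusted p = 0.241). Pkp4 encodes plakophilin 4, an armadillo protein of cell junctions, and its 48-base exon was at 4.17% to 25.3% in WT and 87.9%, 69.0%, 78.1% and 26.6% in MG53-TG (adjusted p = 0.261). The separation in Pkp4 was narrow, since MG53-TG replicate 4 lay just above the highest WT sample.

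The 41-base exon of Plekha1, a phosphoinositide-binding adaptor, was at 16.5% to 25.1% in WT and 34.1% to 73.7% in MG53-TG (limma adjusted p = 0.217). The 47-base exon of Cdk11b, a cyclin-dependent kinase, lay in a transcript without a coding sequence and was at 0.026% to 22.9% and 31.3% to 51.3% (adjusted p = 0.224). The 58-base exon of Fam76b was at most 0.0336% in every WT sample and at 85.3%, 0.0631%, 31.2% and 24.2% in MG53-TG. In Fam76b the groups were thus separated only by the small value of MG53-TG replicate 2, and its mean of 35.2% ± 36.0 (SD, n = 4) rested on the other 3 samples (adjusted p = 0.423).

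Among exons lower in MG53-TG the largest difference was in Mbnl1, which encodes a muscleblind-like splicing factor. Its 54-base exon, which is known to affect the protein's nuclear localisation, was included at 48.4%, 74.0%, 87.2% and 93.0% in WT and at 9.33%, 44.4%, 5.81% and 8.05% in MG53-TG. The groups came close to each other through WT replicate 1 and MG53-TG replicate 2. Means were 75.6% ± 19.8 and 16.9% ± 18.4 (SD, n = 4 each; limma adjusted p = 0.173), and 71.2% and 15.5% over all listed neighbours. Transcripts with the exon were at 20, 19.8, 14.9 and 35.1 FPKM in WT and 2.38, 15.4, 1.56 and 1.95 FPKM in MG53-TG. The level of Mbnl1 itself did not pass the test (log2 difference -0.08, adjusted p = 0.790).

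App encodes the amyloid precursor protein, and its 54-base exon was included at 83.2%, 76.9%, 100% and 53.5% in WT and at 40%, 45.5%, 45.9% and 46.2% in MG53-TG. The MG53-TG samples lay close together and below all WT samples. Means were 78.4% ± 19.2 and 44.4% ± 2.94 (SD, n = 4 each; limma adjusted p = 0.390). The row with the exon was at 51.4 to 72.7 FPKM in WT and 21.5 to 24.6 FPKM in MG53-TG. Another short App exon, of 57 bases, was at 31.3% and 33.9% with overlapping groups (adjusted p = 0.790).

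In Dsc2 and Arap1 the groups also did not overlap, with the MG53-TG samples lower. Dsc2 encodes a desmosomal cadherin, and its 46-base exon was at 51.3% to 59.8% in WT and 28.1% to 45.1% in MG53-TG (limma adjusted p = 0.261). Arap1 encodes a GTPase-activating protein, and its 33-base exon was at 14.7% to 30.5% in WT and 2.38% to 11.7% in MG53-TG (adjusted p = 0.217).

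The remaining differences downward were small. The 43-base 5′ UTR exon of Ctsa, a lysosomal protease, was at 8.30%, 7.34%, 5.19% and 4.33% in WT and at 1.07%, 1.25%, 1.78% and 1.04% in MG53-TG (limma adjusted p = 0.0668). In Ctsa the row with the exon was at 0.898 to 2.14 FPKM in WT and 0.459 to 0.832 FPKM in MG53-TG, while the skipping row was at 19.9 to 24.0 FPKM and 43.8 to 51.0 FPKM. Trim37, Mtch2, Rps10 and Uba3 differed by 6.94, 6.08, 4.56 and 3.68 points between the group means. In Trim37 and Rps10 most of the difference came from 1 MG53-TG sample each, at 76.4% and 81.9% beside 95.6% or more in the others.

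**Figure D4:**
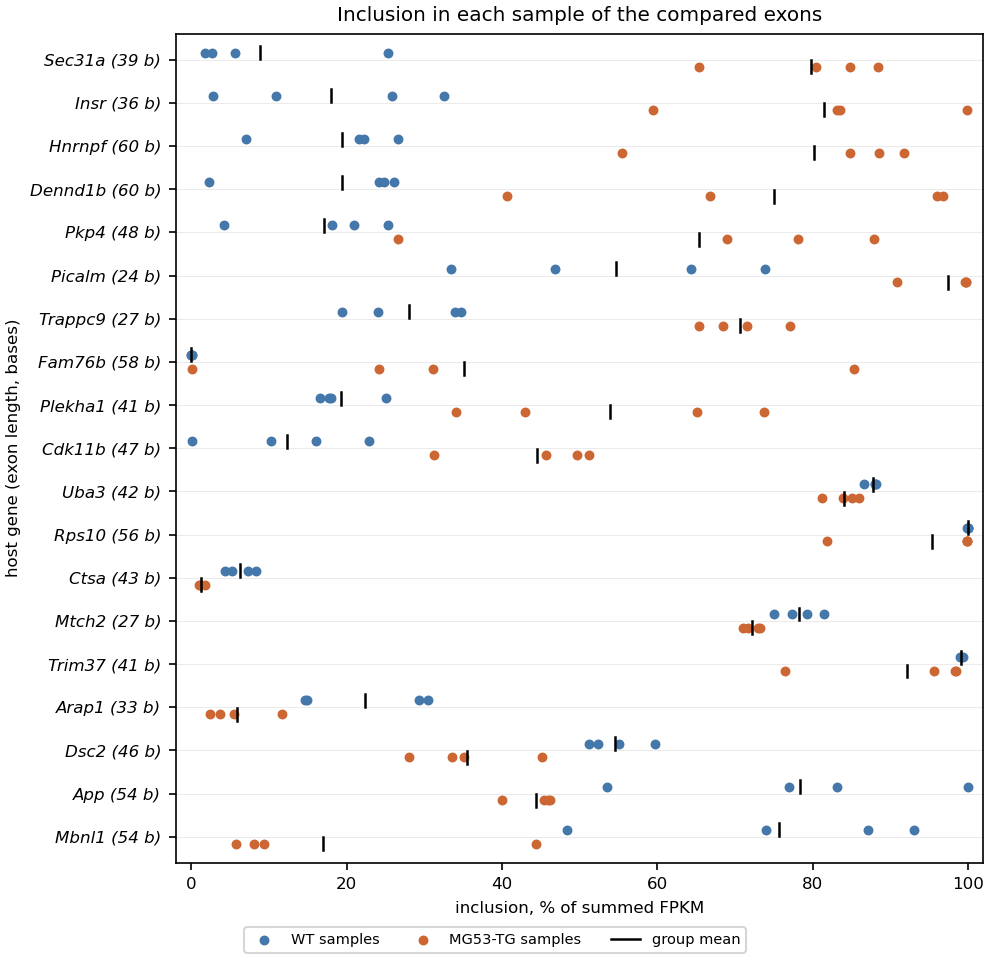
Inclusion in percent of summed FPKM (horizontal axis) in each sample of the exons compared in full (vertical axis, host gene and exon length), WT in blue, MG53-TG in orange and group means as black ticks. The exons were chosen because their groups did not overlap. The spread within a group is wide in Dennd1b, Pkp4 and Fam76b and narrow in Trappc9, Mtch2 and Uba3.

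Microexons were looked at whatever their values. In 40 of the 58 the mean inclusion lay between 5% and 95%, in 14 it was lower and in 4 higher. At an unadjusted p under 0.05 there were 10 microexons, all 10 of them higher in MG53-TG, in Picalm, Trappc9, Tbc1d24, Arntl, Mia2, Macf1, Senp6, Prom1, Cd302 and Sft2d1. This was 17.2% of the microexons beside 10.7% of pairs of any length. Only the Trappc9 microexon passed the adjusted threshold. With a sample left out, the count was 6 to 8 higher and 0 to 2 lower, and on a logit scale with 0.5 added it was 9 higher and 4 lower. Over all microexons the median difference was 1.66 points, beside 0.0029 points over pairs of any length.

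Arntl encodes the circadian clock factor BMAL1, and its 21-base exon was included at 3.39%, 6.18%, 4.86% and 2.1% in WT and at 17.4%, 27.8%, 11.5% and 40.6% in MG53-TG (limma adjusted p = 0.20). The skipping form prevailed in all 8 samples. Senp6, a SUMO protease, had a 21-base exon at 91.4%, 81.4%, 91.0% and 54.8% in WT and 94.8%, 95.2%, 94.5% and 99.5% in MG53-TG (adjusted p = 0.431). The 27-base exon of Cd302, a C-type lectin receptor, was at 87.3% to 90.5% in WT and 92.9% to 96.6% in MG53-TG (adjusted p = 0.274). In all 3 of these genes the groups did not overlap.

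In Macf1, a linker between microtubules and actin, the 18-base exon was at 65.1% to 83.9% in WT and at 77.8%, 98.2%, 98.4% and 97.7% in MG53-TG, so that 1 MG53-TG sample lay within the WT range. In Mia2, which acts at endoplasmic reticulum exit sites, the 27-base exon was at 91.4%, 97.4%, 63.8% and 58.1% in WT and between 97.3% and 98.5% in MG53-TG. The 18-base exon of Tbc1d24, a protein of vesicle traffic, was at 29.8%, 0.836%, 56.1% and 0.678% in WT and at 57.5%, 32.9%, 65.9% and 81.9% in MG53-TG. Prom1 encodes the apical membrane protein prominin 1, and its 27-base exon was at 21.4% to 30.8% in WT and 29.9% to 43.2% in MG53-TG. These 4 exons overlapped between the groups.

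Several microexons had an SD of at most 5.88 points in each group. Over all microexons the median SD was 5.37 points in WT and 5.10 points in MG53-TG. The 18-base exon of Trappc13, another TRAPP subunit, had means of 44.3% ± 5.88 and 47.2% ± 5.81 (SD, n = 4 each). The 25-base exon of Hira, a histone chaperone, was at 4.99% ± 2.21 and 6.68% ± 3.89, and the 12-base exon of Dnm2, the dynamin of endocytosis, at 5.71% ± 1.88 and 7.13% ± 3.88. The 27-base exon of Mtch2, a protein of the outer mitochondrial membrane, was at 78.3% ± 2.74 and 72.2% ± 1.04, a difference of 6.08 points without overlap (limma adjusted p = 0.645).

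Others varied between samples of one group far more than between groups. The 24-base exon of Arrb1, which encodes beta-arrestin 1, was at 5.8%, 80.2%, 10% and 34.6% in WT and at 9.16%, 6.6%, 84.4% and 7.58% in MG53-TG. The 12-base exon of Commd6 ranged from 36.9% to 83.5% in WT and from 52.6% to 88.6% in MG53-TG, and the 27-base exon of Sept2, a septin, from 6.31% to 62.5% and from 25.2% to 50.6%. The 21-base exon of Suco lay at 84.3% in WT replicate 3 and between 18.4% and 28.1% in the other WT samples. None of these 4 exons passed at an unadjusted p under 0.05.

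**Figure D5:**
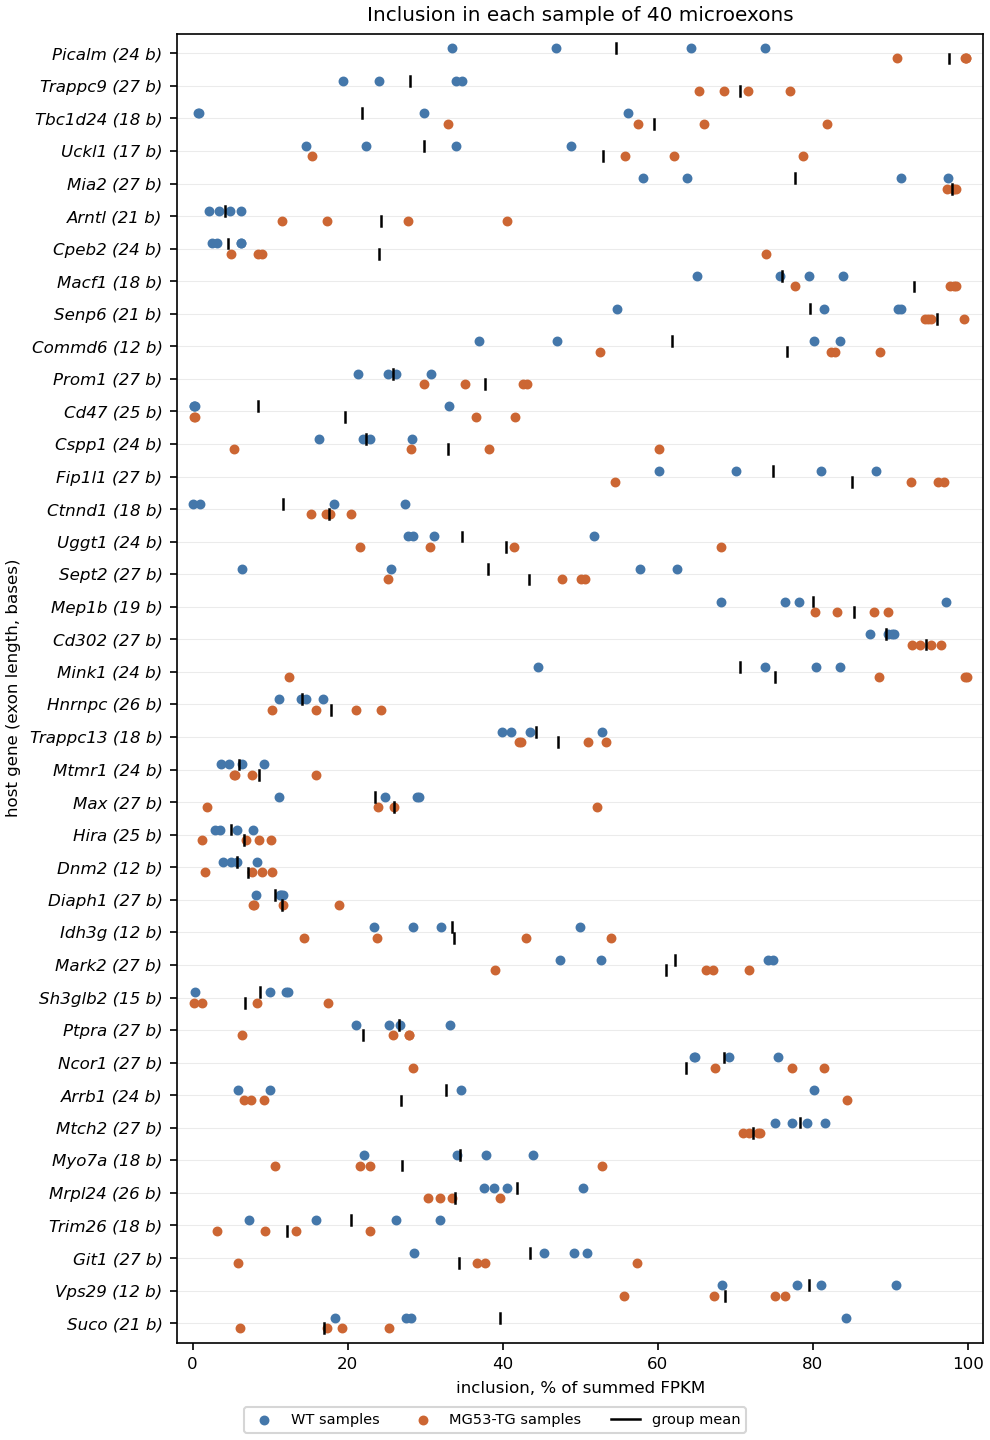
Inclusion in percent of summed FPKM (horizontal axis) in each sample of the 40 microexons with a mean inclusion between 5% and 95% (vertical axis, host gene and exon length), ordered by the difference of the group means, WT in blue, MG53-TG in orange and group means as black ticks. The groups separate in Picalm, Trappc9, Arntl, Senp6, Cd302 and Mtch2, and samples of one group lie far apart in Arrb1, Mink1 and Suco.

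The 18 microexons near 0% or 100% included the very shortest. The 3-base exon of Cyth2 was at 1.32% ± 0.258 in WT and 2.10% ± 0.388 in MG53-TG, and the 6-base exon of the clathrin adaptor subunit Ap2m1 at 0.974% ± 0.580 and 0.436% ± 0.223 (SD, n = 4 each). The 6-base exon of Phb2, a prohibitin of mitochondria, was included at close to 100% in every sample. The 9-base exon of Psap, the precursor of the saposins, was at 0.451% in MG53-TG replicate 2 and at most 0.00731% in the other samples.

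Inclusion within a pair and inclusion over all listed neighbours were within 1 point of each other in every sample for 304 of the 403 short pairs (75.4%), and more than 10 points apart in some sample for 56. Apart from Sec31a, examples chosen after their values were seen are Cd47 and Prom1. The 25-base exon of Cd47, an integrin-associated membrane protein, was at means of 8.42% and 19.6% within its pair and at 87.9% and 88.3% over all neighbours. The 24-base exon of Prom1 was near 0% within its pair and at 38.3% and 56.8% over all neighbours. Over all neighbours 48 short pairs did not overlap between groups, 31 higher and 17 lower, beside 9.74% of pairs of any length (4.92% higher and 4.82% lower). Of the short pairs 1, Trappc9, passed the test, beside 0.455% of pairs of any length.

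By function of the host gene, members were few and their differences mixed. The counts that follow stand beside 4.92% of pairs of any length that were higher and 5.74% that were lower at an unadjusted p under 0.05, and a median difference of 0.0029 points. Of 9 pairs in 8 listed genes of endoplasmic reticulum to Golgi traffic, 1 passed the test. At an unadjusted p under 0.05, 4 were higher (Sec31a, Arfgap1, Mia2 and Osbpl9) and none lower. The median difference of the 9 was 15.9 points. Trappc9, the other short pair that passed, and Trappc13 were not on that list. The 39-base exon of Osbpl9, an oxysterol-binding protein relative, was at 71.0% in WT and 97.7% in MG53-TG (limma adjusted p = 0.449), whereas the 60-base exon of Arfgap1 lay above 99% in both group means. Of 11 pairs in genes of endocytosis and membrane remodelling, 3 were higher and 1 lower at that level, with a median of 1.78 points.

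The 22 pairs in listed genes of RNA binding and splicing had a median of 0.40 points. At an unadjusted p under 0.05, 2 of them were higher and 2 lower. Besides Mbnl1, the other 3 were pairs of Pcbp2, whose group means lay above 99%. Hnrnpf, whose exon was higher in MG53-TG by 60.8 points, was not on that list. Among 14 pairs in listed genes of the cytoskeleton and adhesion, 2 were higher at an unadjusted p under 0.05, in Pkp4 and Macf1, and none lower. The median of the 14 was -0.07 points. Dsc2, whose exon was lower in MG53-TG, was not on that list. Of 9 pairs in listed kinase and signalling genes Insr alone was under 0.05. Cdk11b, whose exon was higher in MG53-TG, was not on that list. Of 4 pairs in listed transcription and chromatin genes Kdm1a alone was under 0.05. Its 60-base exon was at 88.8% in WT and 55.0% in MG53-TG (limma adjusted p = 0.399). None of these pairs other than Sec31a passed the test across all pairs.

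Transcript levels of the host genes were called about as often as those of all genes. Of 335 host genes tested, 43 (12.8%) were higher and 87 (26.0%) lower in MG53-TG, beside 14.8% higher and 28.6% lower of all 10375 genes. Over all genes the median log2 difference was -0.18, and it was -0.02 after scaling by median of ratios. Among the known regulators of short exons, 12 of 27 tested were lower by limma on log2(FPKM + 1), and with that scaling 8 were lower and 1, Hnrnph1, higher, beside 20.2% of all genes lower and 19.6% higher. With the gene level from the highest measure 13 of 27 regulators were lower, beside 29.3% of all genes lower and 15.6% higher.

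Esrp1, the epithelial splicing factor, was at 36.0, 26.6, 30.1 and 30.7 FPKM in WT and 9.74, 11.4, 11.7 and 15.2 FPKM in MG53-TG, a log2 difference of -1.30 on the log2(FPKM + 1) scale (limma adjusted p = 0.000247). Its relative Esrp2 fell from a mean of 17.9 to 12.3 FPKM (log2 difference -0.51, adjusted p = 0.0034). Rbfox2 fell from 10.3 to 5.85 FPKM (log2 difference -0.72, adjusted p = 0.00175) and Tra2a from 47.5 to 26.8 FPKM (log2 difference -0.84, adjusted p = 0.00636). These 4 were lower under each gene-level setting tried. Ptbp1 was at 15.1 to 113 FPKM in WT and 29.0 to 74.1 FPKM in MG53-TG (adjusted p = 0.906), and Srrm3, Srrm4, Rbfox1, Rbfox3, Nova1, Qki and Hnrnpm were not analysed here. Whether these levels had a part in the inclusion differences was not tested.

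The organoids carried epithelial markers, with all 7 listed and summing to 1471 to 1697 FPKM in WT and 1206 to 1694 FPKM in MG53-TG. Of these Cdh1, Cldn7 and Krt18 were lower and Vil1 higher in MG53-TG by limma. With the highest measure Krt8 was lower too, and the sums were 2137 to 2465 FPKM in WT and 1791 to 2267 FPKM in MG53-TG. Of 5 enteroendocrine markers tested 4 were higher in MG53-TG (Chga, Chgb, Pcsk1 and Syp) and Scg2 did not pass (adjusted p = 0.114), with the 7 listed summing to 111 to 129 FPKM in WT and 262 to 336 FPKM in MG53-TG. With the highest measure 3 passed, without Syp, and Scg3 was at 0.804 to 0.875 FPKM in WT and at 0 in 3 of 4 MG53-TG samples. Neurod1 of that list was at or near 0 in every sample. Of 7 neuronal markers 1 was listed, at 0 in WT and at most 0.78 FPKM in MG53-TG, and smooth muscle and immune markers were each below 0.3 FPKM in sum. Of 5 mesenchymal markers 3 were listed, and they summed to 2.27 to 3.24 FPKM in WT and 0.991 to 2.46 FPKM in MG53-TG. With the highest measure 4 were listed and summed to 2.27 to 3.24 FPKM in WT and 1.31 to 5.10 FPKM in MG53-TG, with Col1a2 and Col3a1 at 0 in all WT samples and at up to 2.07 and 1.62 FPKM in MG53-TG. In such bulk samples more cells of a type and more RNA per cell cannot be told apart, and the part of enteroendocrine or mesenchymal cells in the inclusion differences was not tested.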

How the data were processed

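RNA sequencing of 4 WT and 4 MG53-TG organoid samples was used. The submitters' processing notes name cutadapt 1.9.1, HISAT2 2.0.1, HTSeq 0.6.1, DESeq2 and mm10. The authors deposited, per sample, FPKM values of transcript events. These were taken as the FPKM of the transcripts carrying each event, a meaning inferred from the values and not stated in the sources used here, on which every inclusion value rests. The tool that made them is not given in the sources used here. Values reached down to 1e-06 and whole reads were not recovered, so the depth is unknown, no counting interval was computed and the precision is that of 4 samples a group.

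Rows with and without a middle exon were paired on chromosome, strand and outer splice sites. Inclusion was tested with limma 3.58.1 (R 4.3.3, trend) on the arcsine of its square root over all 2197 pairs, with Benjamini-Hochberg adjustment at 0.05. Gene levels summed the transcription start events of a gene. They were tested with limma after adding 1 FPKM and taking log2, leaving out genes whose mean was under 0.5 FPKM. On simulated inclusion with 200 of 2197 pairs shifted, 49% of shifts of 0.2 and 70% of shifts of 0.4 on the arcsine scale were recovered. There were 10 calls among the unchanged pairs and 0 in a simulation with no change. These shares cover pairs of any inclusion, 296 of them with a measured mean under 5% and 693 above 95%. They do not give the power for pairs that vary widely between samples or share transcripts, which was not tested. Measured differences of 63.5 points in Insr and -58.7 points in Mbnl1 did not pass (limma adjusted p = 0.136 and 0.173). Annotation and exon sequences came from GENCODE M21 (GRCm38), in which 391 of the 397 exons had the same ends.

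Exons named were those past the threshold, the 10 largest differences in each direction among pairs whose groups did not overlap, every microexon of at most 27 bases, and pairs at the limits of the rule. Of the 10 largest differences downward, 1 is not reported here. Values of other pairs, such as those in Kdm1a, Osbpl9, Arfgap1 and Pcbp2, were chosen after they were seen. The members and gene lists were chosen with earlier results of these data known. Alternatives covered the scale, the FPKM minimum, the range of inclusion, 1 pair per exon, absent rows as 0, sample weights, a replicate block and leaving out each sample. Inclusion over all listed neighbours and a gene level from the highest of start sum, end sum and single event were chosen after seeing the data. Replicate numbers are shared between the genotypes, and no pairing was used. For marker genes in its crypt organoid transcriptome the paper named a two-tailed paired t test. Neither the paper nor the labels said which samples were paired. With same-numbered samples as a replicate block, 0 pairs passed by limma, so the calls depend on this choice.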

Additional observations from a re-analysis of the deposited data

Results flagged for a closer look

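Each inclusion value of the 20 compared exons and of the microexons between 5% and 95% was set beside the other 3 samples of its group. In 114 groups of 4, a single sample lay far from the others, by Dixon's ratio, in 21, where chance gives about 5.7.

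Of the exons that did not overlap between the genotypes, Sec31a lay at 25.4% in WT replicate 1 beside 1.70% to 5.67% in the other WT samples. Dennd1b lay at 2.32% in WT replicate 1 beside 24.2% to 26.1%, Plekha1 at 25.1% in WT replicate 3 beside 16.5% to 17.9%, and Uba3 at 86.7% in WT replicate 3 beside 88.1% to 88.2%. In MG53-TG, Mbnl1 lay at 44.4% in replicate 2 beside 5.81% to 9.33%, Picalm at 90.9% in replicate 2 beside 99.7% to 99.8%, and App at 40% in replicate 1 beside 45.5% to 46.2%. Trim37 lay at 76.4% in replicate 3 beside 95.6% to 98.5%, Rps10 at 81.9% in replicate 4 beside 99.9%, and Senp6 at 99.5% in replicate 4 beside 94.5% to 95.2%.

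Among the other microexons of WT samples, Suco lay at 84.3% in replicate 3, Uggt1 at 51.7% in replicate 3, Cd47 at 33.1% in replicate 2 and Diaph1 at 8.11% in replicate 4. Among those of MG53-TG samples, replicate 3 stood apart in Arrb1 (84.4%), Cpeb2 (74%) and Sept2 (25.2%). Replicate 2 stood apart in Fip1l1 (54.5%), Mink1 (12.4%) and Ptpra (6.42%), and replicate 1 in Macf1 (77.8%).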

How the results depend on the processing

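Of the 2 short pairs and 9 pairs of any length that passed, counts moved to 14 and 65 on a logit scale with 0.5 added and to 8 and 33 with 0.1 added. With a minimum of 5 FPKM 1 short pair passed (Trappc9, with Sec31a below the minimum), with no minimum 1, within 5% to 95% inclusion 4, and over all listed neighbours 1. With absent rows as 0, 20 pairs of any length and 3 short pairs passed (Incenp, Ndufs4 and Sec31a, without Trappc9). With no minimum Trappc9 did not pass. With a replicate block 0 short pairs and 0 of any length passed by limma, with 51 short pairs and 214 of any length at an unadjusted p under 0.05. Deviations of same-numbered samples correlated at 0.0864, -0.0106, 0.0416 and -0.0338, so the numbers were not taken to pair the samples. Leaving out 1 sample gave 0 to 1 short pairs, 0 to 12 of any length, and 64 to 79 short pairs without overlap. Longer pairs without overlap rose too, from 71 to between 95 and 106 higher and from 94 to between 125 and 141 lower. With fewer samples groups separate more readily, so the rise was not read as a result. Short pairs passing fell to 0 without WT replicate 2, 3 or 4 or MG53-TG replicate 1, with 43 to 52 at an unadjusted p under 0.05, and no pair of any length passed without WT replicate 2 (196 at an unadjusted p under 0.05). The 1 short pair that passed was in Sec31a without WT replicate 1 or MG53-TG replicate 3, in Dnm1l without MG53-TG replicate 2 and in Hnrnpf without MG53-TG replicate 4. Pairs without overlap were 51, and 28 within 5% to 95% inclusion, where fewer were compared. The causes were not tested. More short pairs were higher than lower at an unadjusted p under 0.05 in every setting. The exons compared in full were chosen because their groups did not overlap, which fixes their sign when a sample is left out. Of the other 37 microexons between 5% and 95%, the difference changed sign in 12 when a sample was left out, for example in Arrb1 from -5.72 to 10.1 points without WT replicate 2, in Sept2 from 5.37 to -5.21 without WT replicate 1 and in Mink1 from 4.53 to -4.15 without WT replicate 4. Depth is unknown, so low rows limit the precision to a degree that was not measured, and inclusion was read as resting on transcript estimates, not on junction reads.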

Other observations

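Other short exons had MG53-TG samples above all WT samples without passing the adjusted threshold, and they were picked here after their values were seen. The 33-base exon of Agfg2 was at 4.90% to 19.1% in WT and 22.6% to 57.6% in MG53-TG. The 39-base exon of Rcc1, the exchange factor for Ran, was at 8.05% to 15.7% and 16.5% to 31.8%, and the 45-base exon of Lrrfip2 at 2.97% to 4.86% and 10% to 44%. The 39-base exon of Dnm1l, the dynamin-related GTPase of mitochondrial fission, was below 0.003% in WT and at 4.78%, 0.0247%, 9.93% and 14.7% in MG53-TG.

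Different cassette exons of one gene did not always lean the same way. In Pkp4 the 48-base exon had group means of 17.1% in WT and 65.4% in MG53-TG, while a 129-base exon had 23.3% and 6.70%, with overlapping groups (limma adjusted p = 0.343). In Dnm1l a 33-base exon had means of 94.5% and 58.2%, also overlapping (adjusted p = 0.551).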
